A study of Mus musculus with 45 samples.

Results

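The interval from day 3 to day 5 of differentiation was followed in 3 courses that began from the same serum-grown cells. Its members are the 3 libraries titled SL at day 5 and the 3 titled SL at day 3, which are 6 of the 45 libraries of the series, and all 35372 counted genes were considered. The cells were wild type male E14tg2a mouse embryonic stem cells (ESCs) of the 129/Ola background, kept before differentiation in SL, a medium of serum with leukaemia inhibitory factor (LIF). From there they were grown as suspended embryoid bodies in serum without LIF (the EB course), as attached cells in N2B27 with Fgf2 and Activin A (the EpiSC course), or as attached cells in N2B27 alone (the Neural course). No allele, transgene or sorting step distinguished the 3 courses, which share 1 cell line. Each course has 1 library at each day, so the 3 courses served as the replicates of the step, and a p-value below measures how unlike the courses were and not the spread between repeated cultures of 1 course.

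By day 3 ESCs have left the naive state and resemble the epiblast of the early embryo, and in the days that follow they take up germ layer programmes that depend on the medium. Serum and Activin favour mesoderm and endoderm, whereas N2B27 without growth factors lets cells pass to neural progenitors. ESC cultures also hold rare cells that switch on genes of the 2-cell embryo, among them the Zscan4 family.

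Between 14499396 and 20151622 reads were counted per library, and 3 reads corresponded to 0.146 to 0.203 CPM (a count scaled to the size of its library, with TMM factors over the 45 libraries), a floor that covers counting error only. The labelled cell types were compared with their defining markers. In the Neural course Pax6 stood at 44.9 CPM at day 3 and 51.5 at day 5, against 1.71 at both days in EB and 6.17 and 2.97 in EpiSC. Sox1, another neural progenitor marker, was highest in Neural at both days, at 128 and 67.6 CPM, and lower at day 5 than at day 3. In the EpiSC course the epiblast markers Pou5f1, Fgf5 and Nodal were present at 248, 47.6 and 56.0 CPM at day 5, while EB still had more Pou5f1 (405 CPM) and Fgf5 (69.9 CPM). The Neural course also carried endoderm markers: the summed level of Sox17, Foxa2 and Cxcr4 was 41.2 CPM at day 3 and 117 at day 5, against 23.9 to 30.4 CPM in the other 4 libraries. Markers of extraembryonic endoderm were present in every course, with sums at days 3 and 5 of 1145 and 911 CPM in EB, 445 and 208 in EpiSC and 1402 and 1704 in Neural. Of these markers, Cubn was highest in Neural (1355 and 1597 CPM), whereas Afp, Apoa1, Ttr and Amn were highest in EB at both days. RNA was taken from whole cultures, in which fewer cells of a type and less RNA per cell cannot be told apart.

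The first question was which genes moved the same way in all 3 courses. In a fit with course and day, 65 of 14830 genes tested passed an adjusted p of 0.05 and had the same sign in every course. Of these, 26 rose (0.175% of the genes tested) and 39 fell (0.263%). The falls included the Zscan4 genes and many other multicopy genes, and the rises included the actins Acta2 and Acta1. The fit leaves 2 residual degrees of freedom, and without adjustment 3028 genes had p below 0.05. The count was 34 without the EB course, 0 without the EpiSC course and 0 without the Neural course with edgeR, where 1879 and 2262 genes had an unadjusted p below 0.05, and DESeq2's Wald test called 834 genes in the 6 libraries. When every SL library from day 1 on (21 in all) entered the estimate of spread, 575 genes rose (3.71% of 15483) and 633 fell (4.09%) with 1 sign in the 3 courses, and these included 62 of the 65.

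**Figure D1:**
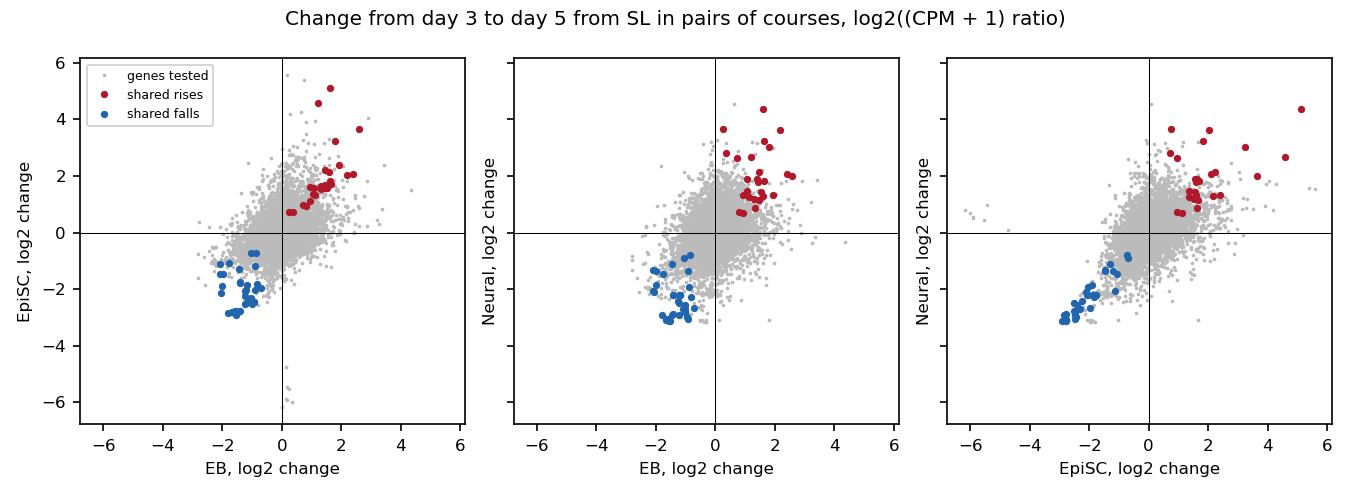
Change of each of the 14830 genes tested from day 3 to day 5 from SL, as log2((CPM + 1) ratio), in EB against EpiSC (left), EB against Neural (middle) and EpiSC against Neural (right). Each grey point is a gene, red points are the 26 shared rises and blue points the 39 shared falls. The red and blue points lie towards the upper right and lower left, as the rule for a shared change requires, and the isolated points near -6 in EpiSC are clone-named genes that were high in the EpiSC library of day 3.

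Most changes of at least 2-fold were not met in all 3 courses at once. Over the genes tested, the mean of the 3 courses held 60.4% of the summed squared log2 changes. That share stays above 0 even for unrelated courses. A change of at least 2-fold, on the log2(CPM + 1) scale, was met by 393 genes upward and 375 downward in EB, by 564 and 296 in EpiSC and by 545 and 529 in Neural. In all 3 courses at once it was met by 34 genes upward and 60 downward, and 38 genes passed it in opposite directions in 2 courses. Across the genes tested, Pearson's r between the changes was 0.394 for EB and EpiSC, 0.336 for EB and Neural and 0.485 for EpiSC and Neural. These are descriptions across genes, which are not independent, and the 2 libraries of 1 course enter each value of that course. The EpiSC and Neural courses, both attached and in N2B27, were the most alike of the 3 pairs by this measure.

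The 4 named Zscan4 genes fell together and from very unequal levels. They encode zinc finger proteins of the 2-cell embryo and lie on chromosome 7 between 10900740 and 11402318 (GRCm38). Zscan4c was at 17.9 CPM in EB, 299 in EpiSC and 341 in Neural at day 3. At day 5 it was at 4.42, 41.0 and 44.2 CPM. The EB library of day 3 was already lower than the EpiSC and Neural libraries of day 5, so the days overlapped across courses although each course fell. The fitted log2 fold change was -2.66 ± 0.20 (SE, edgeR quasi-likelihood test, adjusted p = 0.0231, n = 3 courses). Zscan4f, the most abundant of the 4, went from 21.1 to 7.02 CPM in EB, from 367 to 51.2 in EpiSC and from 420 to 54.6 in Neural (log2 fold change -2.51 ± 0.28 SE, adjusted p = 0.0434). Zscan4d fell by 2.64 and Zscan4b by 2.83 on the log2 scale, with adjusted p of 0.0300 and 0.0294.

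The promoters of these 4 genes are shown because the genes moved as a block. The bases printed lie before the annotated start of each gene, so they do not measure how reads were assigned to the copies. The 120 bases below come from the RefSeq promoter windows of GRCm38.p6, are aligned on their TATAAA box in capitals, and are written 5′ to 3′ on the strand of the gene. Zscan4b is chr7:10905052-10905171 on the minus strand, Zscan4c is chr7:11005601-11005720 on the plus strand, Zscan4d is chr7:11166184-11166303 on the minus strand and Zscan4f is chr7:11397794-11397913 on the plus strand.
Zscan4b: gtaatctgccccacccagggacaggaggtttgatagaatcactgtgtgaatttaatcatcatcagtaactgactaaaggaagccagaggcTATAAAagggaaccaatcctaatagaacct
Zscan4c: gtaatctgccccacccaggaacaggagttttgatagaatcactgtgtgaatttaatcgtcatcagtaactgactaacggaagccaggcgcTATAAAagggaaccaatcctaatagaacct
Zscan4d: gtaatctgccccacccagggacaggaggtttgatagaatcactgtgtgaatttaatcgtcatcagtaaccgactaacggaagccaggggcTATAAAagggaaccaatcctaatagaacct
Zscan4f: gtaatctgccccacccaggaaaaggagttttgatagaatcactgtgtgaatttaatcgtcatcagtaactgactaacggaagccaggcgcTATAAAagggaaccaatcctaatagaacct

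These stretches differ at 1 of 120 bases between Zscan4c and Zscan4f and at 7 between Zscan4b and Zscan4f, the closest and the most distant pair. The box starts 31 bases before the annotated start of Zscan4b and Zscan4f, 54 before that of Zscan4c and 65 before that of Zscan4d. On the strand of the gene, the letters TATAAA are held by 8.32% of the 32851 RefSeq windows of 300 bases. Among the shared genes with a window, 4 of 20 falls hold them, which are these 4, and 3 of 18 rises do.

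Of the 39 shared falls, 25 carry only clone or predicted gene names, and none of the 26 rises does. The falls were grouped on the genome: 11 lie on chromosome 5 between 93924777 and 95746617, 7 on chromosome 10 between 104142987 and 104196522, the 4 Zscan4 genes on chromosome 7 and 3 on chromosome 12 between 87514316 and 88250100. No 2 shared rises lay within 2 Mb of each other. The 7 genes on chromosome 10 behaved almost as 1 gene. Their levels were 48.9 to 56.6 CPM in EB, 536 to 609 in EpiSC and 701 to 793 in Neural at day 3, and 15.2 to 17.1, 75.2 to 85.8 and 80.2 to 94.6 CPM at day 5. The 11 genes on chromosome 5 were much lower, at 1.41 to 3.12 CPM in EB, 10.1 to 38.2 in EpiSC and 14.3 to 41.7 in Neural at day 3. For 25 of the 39 falls more than 50% of the 50-base stretches of their transcripts also occur in transcripts of another gene (59.3% to 100%), whereas the highest value among the rises was 2.02%. Zscan4b, Zscan4f and Zscan4c stood at 90.1%, 86.8% and 85.5%, and Zscan4d at 49.6%. How reads that match several copies were counted is not given in the sources used here, so the level of a single copy is uncertain and the copies are not separate observations of the fall.

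**Figure D2:**
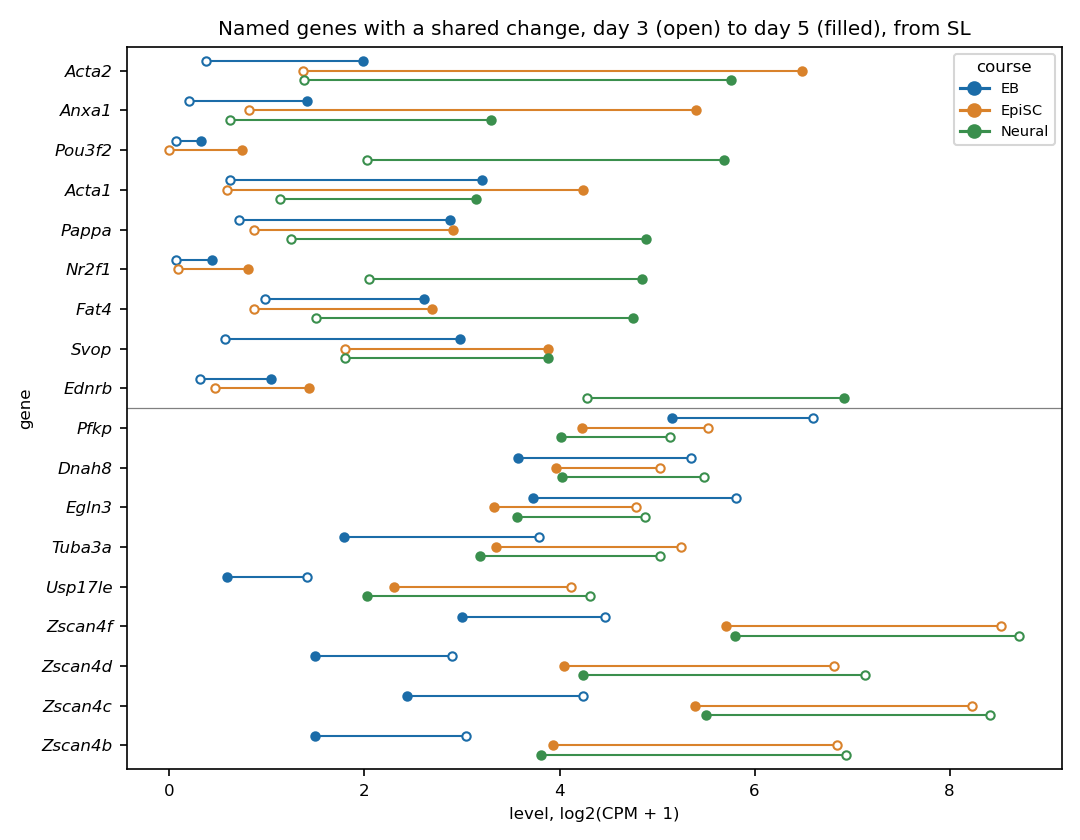
Levels, as log2(CPM + 1), of 9 named genes with large shared rises (above the line) and 9 with large shared falls (below it), with the EB course in blue, EpiSC in orange and Neural in green. Open points are day 3 and filled points day 5, 1 library each. Every line runs to the right above the divider and to the left below it, and the Zscan4 genes were more than 2 log2 units lower in EB than in the other courses at both days.

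Among the other named falls, Tuba3a, an alpha tubulin, fell by 2.10 on the log2 scale (SE 0.16, adjusted p = 0.0231), from 12.8 to 2.46 CPM in EB, from 36.9 to 9.19 in EpiSC and from 31.7 to 8.12 in Neural. Its day 3 and day 5 libraries did not overlap. Usp17le, a deubiquitinase gene, had 1.66, 16.4 and 18.9 CPM at day 3 and 0.502, 3.92 and 3.06 at day 5 in EB, EpiSC and Neural. Of the stretches of Tuba3a and Usp17le, 33.6% and 29.8% occur in other genes.

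Pfkp and Egln3 belong to glycolysis and the response to oxygen. Pfkp, the platelet form of phosphofructokinase, went from 96.3 to 34.6 CPM in EB, from 44.9 to 17.8 in EpiSC and from 34.2 to 15.1 in Neural (log2 fold change -1.33 ± 0.12 SE, adjusted p = 0.0356). Egln3, a prolyl hydroxylase that acts on hypoxia-inducible factor, went from 54.9 to 12.2, from 26.6 to 9.06 and from 28.5 to 10.8 CPM (log2 fold change -1.70, adjusted p = 0.0434). Both were highest in EB at day 3 and lower at day 5 in each course. Dnah8, an axonemal dynein heavy chain, fell by 1.49 on the log2 scale. The shared falls outside the naming rule, given here after their values were seen, were Ubash3a (-2.05), whose mean level was 4.94 CPM, Chd9 (-1.15), Kdm4c (-0.89), a histone lysine demethylase, and G2e3 (-0.79), a ubiquitin ligase.

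The largest shared rise was that of Acta2, smooth muscle actin. It was at 0.293 CPM in EB, 1.59 in EpiSC and 1.60 in Neural at day 3, and at 2.96, 88.8 and 53.2 CPM at day 5. Its log2 fold change was 5.14 ± 0.39 (SE, adjusted p = 0.0231), but the EB value at day 5 rests on 59 reads and was far below that of the other courses. Acta1, the skeletal muscle actin, stood at 0.536, 0.509 and 1.19 CPM at day 3 and at 8.23, 18.0 and 7.84 at day 5 in EB, EpiSC and Neural (log2 fold change 3.85 ± 0.47 SE, adjusted p = 0.0459). Every day 5 library was above every day 3 library for both actins.

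Pappa, a metalloproteinase that cleaves binding proteins of insulin-like growth factors, went from 0.634 to 6.37 CPM in EB, from 0.827 to 6.49 in EpiSC and from 1.36 to 28.5 in Neural (log2 fold change 3.64, adjusted p = 0.0358). Anxa1, a calcium-dependent membrane-binding annexin, reached 41.2 CPM in EpiSC and 8.84 in Neural from under 1 CPM, and 1.66 in EB (log2 fold change 4.77, adjusted p = 0.0358). At day 5 Anxa1 was lowest in EB, whereas Pappa was at nearly the same level in EB and EpiSC. By day 7 Pappa was highest in EB, at 45.2 CPM against 8.36 in EpiSC and 18.1 in Neural. Fat4, a giant cadherin, rose from 0.827 to 1.84 CPM at day 3 to 5.12 to 26.0 at day 5, with Neural highest. Svop, which encodes a protein of synaptic vesicles, went from 0.488 to 6.87 CPM in EB, from 2.48 to 13.7 in EpiSC and from 2.49 to 13.7 in Neural.

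A further 3 of the 10 genes with the largest rises were above 2 CPM in the Neural course alone. Pou3f2, a POU factor of neural progenitors, had 52 reads at day 3 and 907 at day 5 in Neural (3.08 and 50.5 CPM), but 1 and 5 reads in EB and 0 and 10 in EpiSC. Nr2f1, an orphan nuclear receptor of the developing nervous system, had 53 and 500 reads in Neural, 1 and 7 in EB and 1 and 11 in EpiSC. Ednrb, the type B endothelin receptor, went from 18.5 to 120 CPM in Neural while it stayed between 0.244 and 1.69 CPM in the other 4 libraries. Their shared direction in EB and EpiSC therefore rests on 25 reads or fewer in each library, and in the fit over 21 libraries their adjusted p was 0.0820, 0.0573 and 0.0761.

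Hmga2, a chromatin protein and a well-known target of let-7 microRNAs, entered through its list. It went from 10.2 to 41.7 CPM in EB, from 21.2 to 115 in EpiSC and from 58.9 to 148 in Neural (log2 fold change 1.93 ± 0.22 SE, adjusted p = 0.0434). The other 15 shared rises are named here after their values were seen. Adhesion and guidance genes among them were Itgb8 (log2 fold change 2.01), an integrin chain, Cdh6 (1.34), a cadherin, Sdc3 (1.69), a syndecan, Unc5c (2.83), a netrin receptor, and Sema6a (1.32), a semaphorin. Secreted or cell surface proteins were Cyr61 (1.75), Serpine2 (1.69), a protease inhibitor, and Mme (1.39), a metallopeptidase. Irs1 (1.55), the insulin receptor substrate, stood at 15.9 to 28.1 CPM at day 3 and at 48.8 to 82.6 at day 5, without overlap. The smallest rises were those of Btg2 (0.95) and Zak (0.85), and the remaining 4 were Ano3, Fam212b, Vwa5a and Lhfpl2, with log2 fold changes of 2.28, 1.52, 1.51 and 1.39.

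**Figure D3:**
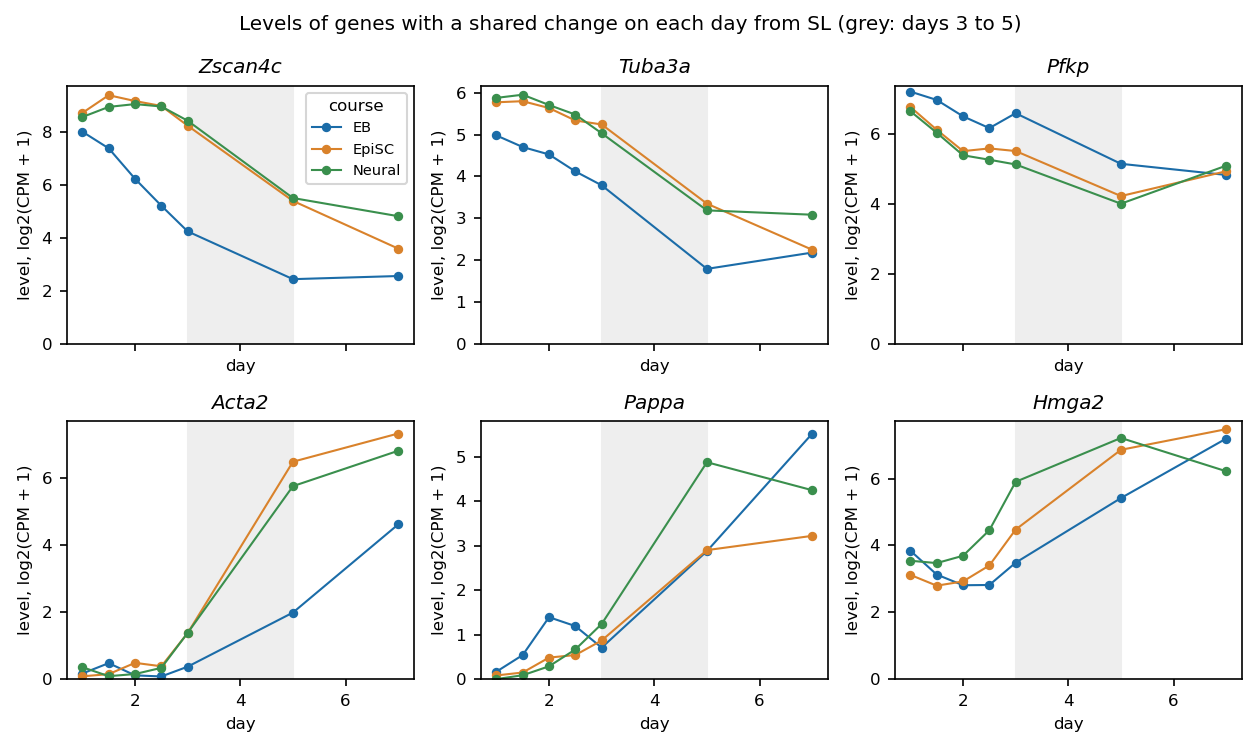
Levels, as log2(CPM + 1), of 3 shared falls (Zscan4c, Tuba3a, Pfkp, top row) and 3 shared rises (Acta2, Pappa, Hmga2, bottom row) on days 1, 1.5, 2, 2.5, 3, 5 and 7 from SL, with 1 point a library and 1 line a course (EB blue, EpiSC orange, Neural green). The grey band marks days 3 to 5. Zscan4c in EB declined from day 1 on, whereas in EpiSC and Neural it was at 299 CPM or more up to day 3. Acta2 rose mainly inside the band in EpiSC and Neural, and in EB it rose more after the band (2.96 CPM at day 5 and 23.6 at day 7).

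Libraries of other days gave values that the choice of these genes had not used. From day 2.5 to day 7 of the same courses, 3403 of 14912 genes (22.8%) passed the test in either direction. All 65 shared genes kept their sign there, against 79.3% of all genes tested, and 63 passed, which were the 26 rises and 37 of the 39 falls. The exceptions were Pfkp (adjusted p = 0.0897) and Egln3 (adjusted p = 0.158). This interval encloses days 3 to 5 of the same courses, so genes chosen for that step are likely to keep their sign. Near-identical copies among the falls each entered these counts. Egln3 in Neural was at 10.8 CPM at day 5 and 23.9 at day 7, and Pfkp there was at 15.1 and 33.3 CPM, so in that course both were higher again by day 7. Before day 3 the courses differed in timing. Zscan4c was at 418 CPM in EpiSC and 375 in Neural at day 1 and at 502 and 495 at day 2.5, whereas in EB it was lower at each day from day 1 (255 CPM) to day 2.5 (36.0 CPM). Leaving out the EB, EpiSC or Neural course lowered the 3403 to 13, 0 and 1201.

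Cells that had come from 2iL, a serum-free medium with 2 kinase inhibitors and LIF, passed the same interval in the EB and Neural courses. Of the 65 shared genes, 60 (92.3%) moved from day 3 to day 5 in the same direction in both 2iL courses, against 53.5% of all genes tested. They were 24 rises and 36 falls. The count is of signs whatever their size, and near-identical copies among the falls each entered it. The 4 Zscan4 genes agreed in sign with log2 changes of only -0.087 to -0.341 in Neural, against -4.52 to -5.59 in EB. Tuba3a from 2iL went from 60.8 to 9.01 CPM in Neural, and its log2((CPM + 1) ratio) in EB was -3.62. Zscan4c behaved unequally: from 2iL it went from 143 to 2.25 CPM in EB and from 40.6 to 32.7 in Neural. The test of the difference between media found 0 of 15191 genes (0%) past the threshold with edgeR, 175 at an unadjusted p below 0.05, and 10 genes with DESeq2's Wald test. The 8 libraries of that test leave 2 residual degrees of freedom, and for Zscan4c the difference of the log2 changes was 0.51 with a standard error of 2.15, so a large difference in either direction lies within its error. The 5 genes with named symbols and the smallest p were Lincenc1, Afp, Zfp534, Dnmt3l and Fndc3c1. Dnmt3l, a cofactor of the DNA methyltransferases, went from 72.9 to 25.4 CPM in EB, from 84.3 to 55.9 in EpiSC and from 104 to 37.5 in Neural from SL, and its log2 change was -3.51 in EB and -2.90 in Neural from 2iL.

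Gene lists for the pathways and lineages of these courses were counted against the same background. Of 32 lists, 4 had a member past the threshold in the 6 libraries: the cardiac and lateral mesoderm list (Acta2), the neural progenitor list (Pou3f2), the Lin28 and let-7 list (Hmga2) and the glycolysis and hypoxia list (Pfkp and Egln3). Acta2 is a marker of smooth muscle more than of heart, and no other member of the first list passed. Of 23 glycolysis and hypoxia genes 2 fell and none rose with edgeR, against 0.263% of all genes that fell. At an unadjusted p below 0.05, 16 were lower and 0 higher, against 9.33% lower and 11.1% higher of all genes, and the median log2 fold change was -0.53 against 0.02 over all genes tested. In the fit over 21 libraries, 11 of the 23 fell, against 4.09% of all genes. Among them were Aldoa, the aldolase, which went from 2535 to 1073 CPM in EB, from 1406 to 937 in EpiSC and from 1236 to 864 in Neural, and Pdk1, pyruvate dehydrogenase kinase, which went from 311 to 87.6, from 168 to 109 and from 125 to 66.6 CPM. Both were highest in EB at day 3.

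Targets of p53 showed the opposite sign. With edgeR 0 of 15 passed in the 6 libraries and 10 were higher and 1 lower at an unadjusted p below 0.05 (11.1% and 9.33% of all genes), with a median log2 fold change of 0.57. In the fit over 21 libraries 8 of the 15 rose, against 3.71% of all genes. Cdkn1a, the inhibitor of cyclin-dependent kinases, went from 11.8 to 21.6 CPM in EB, from 20.4 to 53.9 in EpiSC and from 17.3 to 56.1 in Neural (log2 fold change 1.34, adjusted p = 0.0528 in the 6 libraries and 0.00198 in the 21). Among neural crest and surface ectoderm genes, 0 of 17 passed in the 6 libraries with edgeR, with 8 higher and 0 lower at an unadjusted p below 0.05. In the larger fit 5 of 19 rose, against 3.71% of all genes, which were Sox9, Tfap2c, Ets1 and the keratins Krt8 and Krt18. Krt8 was at 102 and 650 CPM in EpiSC, 86.7 and 302 in Neural and 127 and 174 in EB. The neural crest markers Foxd3, Sox10 and Tfap2b did not rise as a set. Their summed level went from 25.4 to 21.02 CPM in EB, from 11.51 to 9.529 in EpiSC and from 4.034 to 2.169 in Neural. Their log2 fold changes were -0.612, 0.019 and 0.313, and none passed in the 6 libraries.

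General pluripotency genes tended to be lower at day 5, and naive pluripotency genes less so. For the naive list 0 of 14 passed with edgeR. At an unadjusted p below 0.05, 2 of them were lower and 1 higher, and the median log2 fold change was -0.30. The general list had a median of -0.63, and its course medians were -0.269 in EB, -0.346 in EpiSC and -1.18 in Neural. For the general pluripotency list 0 of 12 passed with edgeR and 6 were lower and 0 higher at an unadjusted p below 0.05 (9.33% and 11.1% of all genes). In the larger fit 2 of 12 fell, against 4.09% of all genes, which were Dppa2 and Dppa4. Dppa2 was at 39.8 and 5.62 CPM in EB, 56.4 and 30.3 in EpiSC and 41.5 and 12.9 in Neural. Pou5f1, the core pluripotency factor Oct4, was at 459 and 405 CPM in EB, 319 and 248 in EpiSC and 123 and 53.4 in Neural (log2 fold change -0.57, adjusted p = 0.204). Nanog was higher at day 5 in EB (81.7 and 107 CPM) and lower in EpiSC (148 and 85.6) and Neural (50.7 and 17.6). Sox2, which both pluripotent and neural cells use, gave a log2 fold change of -0.02 with a standard error of 0.10. Fgf5 (-0.10), Pax6 (-0.24), Tubb3 (-0.36) and Gata4 (0.31) did not pass either, with adjusted p between 0.443 and 0.877. For Hbb-bh1, an embryonic globin, the Neural library of day 5 had 2.22 CPM and the other libraries at most 0.0593, and the filter on low counts removed it.

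None of the X inactivation genes of these male cells passed in the 6 libraries. Xist, the RNA that silences an X chromosome in female cells, was at 2.00, 1.72 and 1.36 CPM at day 3 and 1.35, 0.743 and 1.17 at day 5 in EB, EpiSC and Neural (log2 fold change -0.63, standard error 0.36, adjusted p = 0.381). Its antisense transcript Tsix was at 1.66 to 2.48 and 1.10 to 1.62 CPM. The log2 fold changes of Ftx, Jpx and Rlim were -0.29, 1.13 and -0.42, with adjusted p of 0.433, 0.266 and 0.172. Tsx gave -1.62, with adjusted p = 0.160 in the 6 libraries and 0.0165 in the 21.

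The next question was which changes belonged to 1 course. A single-course change was defined as a log2((CPM + 1) ratio) of at least 2 in 1 course and under 0.5 in size in both others, with at least 5 CPM in 1 library. It was met by 10 genes in EB (8 higher and 2 lower at day 5), by 21 in EpiSC (17 and 4) and by 26 in Neural (20 and 6). With 1 library at each day these are values without a test, and they were set beside day 2.5 and day 7 of the same course.

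**Figure D4:**
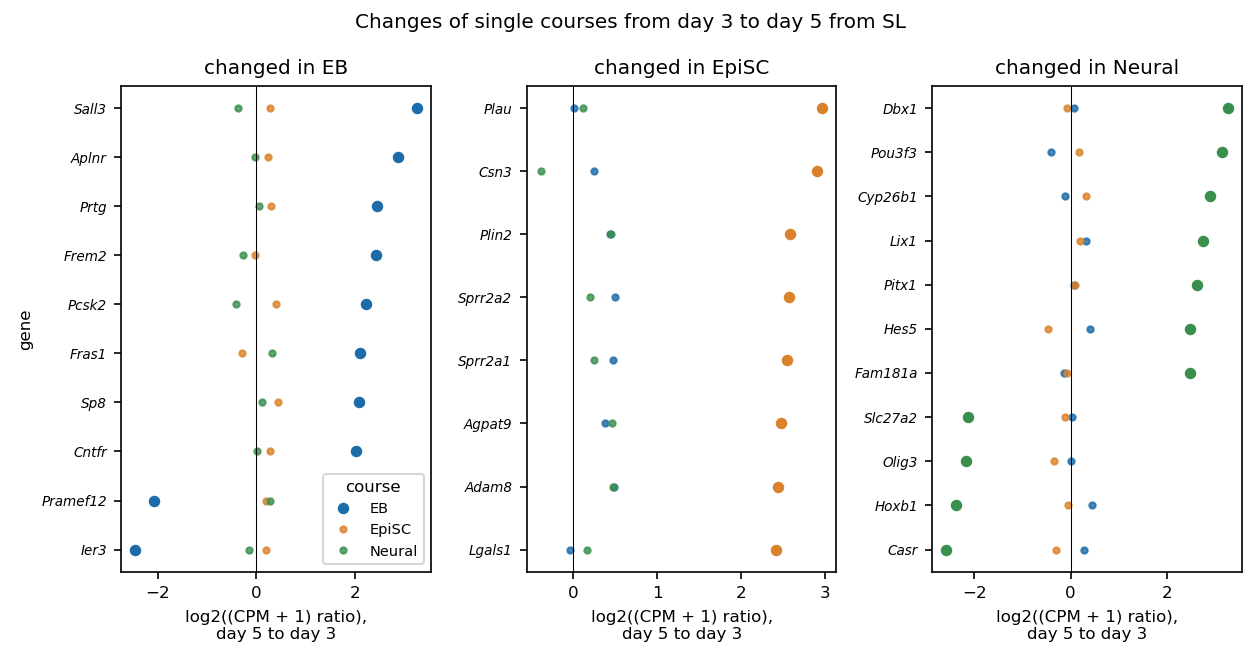
Change from day 3 to day 5 from SL, as log2((CPM + 1) ratio), of 29 single-course genes (up to 8 with the largest rises and up to 5 with the largest falls a course), in the panel of the course in which they changed (EB left, EpiSC middle, Neural right). Large points are that course, small points the other courses (EB blue, EpiSC orange, Neural green), 1 value each from 2 libraries. The large points lie beyond 2 and the small points within 0.5 of zero, as the rule requires.

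Among the genes of EB, Aplnr, the apelin receptor, known from early mesoderm, went from 0.585 to 10.6 CPM, and was at 0.112 at day 2.5 and 34.9 at day 7. It was at most 0.415 CPM in the EpiSC and Neural libraries of days 3 and 5. Frem2 and Fras1, which encode proteins of the same basement membrane complex, went from 35.2 to 194 and from 14.9 to 68.0 CPM. Sall3, a zinc finger factor, went from 1.41 to 22.2 CPM in EB, and was at 21.3 and 16.3 in Neural. The same held for Prtg, a surface protein of the early neural tube and mesoderm, which reached 357 CPM from 64.3 in EB and was at 727 and 753 CPM in Neural, so the change was of EB but the level was not. Sp8, Cntfr, the receptor of ciliary neurotrophic factor, and Pcsk2 completed the 8. Pcsk2 went from 0.585 to 6.47 CPM in EB and was lower again at day 7, at 2.14. Ier3 and Pramef12 were the lower ones, at 21.7 and 3.16 CPM and at 24.9 and 5.17. From 2iL, 7 of the 8 higher genes had a log2 change above 1.5 in EB, and Pcsk2 had 1.16. Of the 2 lower genes, Pramef12 had -2.72 from 2iL and Ier3 0.05, so Ier3 was not lower at day 5 from 2iL.

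Among the genes of EpiSC, Plau, the urokinase protease, went from 1.72 to 20.2 CPM, and stayed between 0.293 and 1.5 in the EB and Neural libraries. Plin2, the coat protein of lipid droplets, went from 23.3 to 144 CPM, and Lgals1, galectin 1, from 37.1 to 202. At day 7 these 3 were at 14.5, 72.1 and 190 CPM in EpiSC. Col14a1 and Col1a1 (1.97 and 11.4 CPM), both collagens, Mmp9, a matrix metalloproteinase, and Gsn, the actin-severing gelsolin, also met the criteria and are named after their values were seen. Col1a1 reached 85.9 CPM at day 7. Csn3, Agpat9, Adam8 and the keratinocyte envelope genes Sprr2a1 and Sprr2a2 were the others of the 8 largest. Csn3 went from 0.127 to 7.43 CPM and was back at 1.67 by day 7, and 96.3% and 96.5% of the stretches of Sprr2a1 and Sprr2a2 occur in other genes. Agpat9, Adam8, Sprr2a1 and Sprr2a2 were at 7.16 to 9.46 CPM at day 5 and at 2.79 to 3.80 at day 7 in EpiSC. The 4 lower genes all had clone names and were not high at day 2.5: they stood at 5.34 to 61.4 CPM in the EpiSC library of day 3, at 0.379 to 1.90 at day 2.5 and at most 1.84 in the other 5 libraries. These 4 values thus rest on 1 library.

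Among the genes of Neural, Dbx1, a homeobox factor of interneuron progenitors, went from 0.653 to 14.9 CPM and did not exceed 0.127 in the EB and EpiSC libraries. Hes5, a Notch effector, went from 3.03 to 21.6 CPM, and Pou3f3 from 1.90 to 24.5. Cyp26b1, which degrades retinoic acid, went from 2.97 to 28.6 CPM, and Lix1 and Fam181a from 1.96 to 18.8 and from 1.66 to 13.9. By day 7 Lix1 and Fam181a were lower again in Neural, at 3.39 and 4.80 CPM. Pitx1 (0.356 and 7.34 CPM) is a limb and pituitary factor. F2 (2.73 and 14.1 CPM), Rfx6 (1.19 and 8.51 CPM) and Dpp4 (33.6 and 148 CPM), named after their values were seen, are known from endoderm derivatives among other tissues. The endoderm genes Sox17 (15.8 to 52.9 CPM), Foxa2 (9.61 to 33.1) and Gata4 (23.8 to 68.0) moved in the same libraries, and their part in these values was not tested. The lower genes included Hoxb1 (22.8 and 3.56 CPM), known from the hindbrain, Olig3 (21.4 and 4.01), Casr (6.94 and 0.334), Slc27a2 (18.3 and 3.39) and Fam49a. Olig3 and Hoxb1 were already at 19.9 and 14 CPM at day 2.5. From 2iL the Neural course gave a change of the same sign for Dbx1 (0.0611 and 31.7 CPM) and Hoxb1 (22.4 and 1.48).

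Whether a change differed between courses was then tested with days 2.5 and 3 as the early and days 5 and 7 as the late period of each course, since neighbouring days stand in for replicates. The course by period term passed for 41 of 15372 genes (0.267%), and 2095 had an unadjusted p below 0.05. None of the 65 shared genes was among them with edgeR, and of the 57 single-course genes 4 were, which were Sall3, Frem2, Cntfr and Lgals1. Both sets were chosen from day 3 and day 5 libraries that this test also used, so the 2 counts are not independent of that choice. The count of 41 depended on single libraries: leaving out 1 library gave between 3 (EB day 3 or Neural day 2.5) and 262 (EB day 5), and 11 of the 12 libraries moved it by more than 1.5 times.

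**Figure D5:**
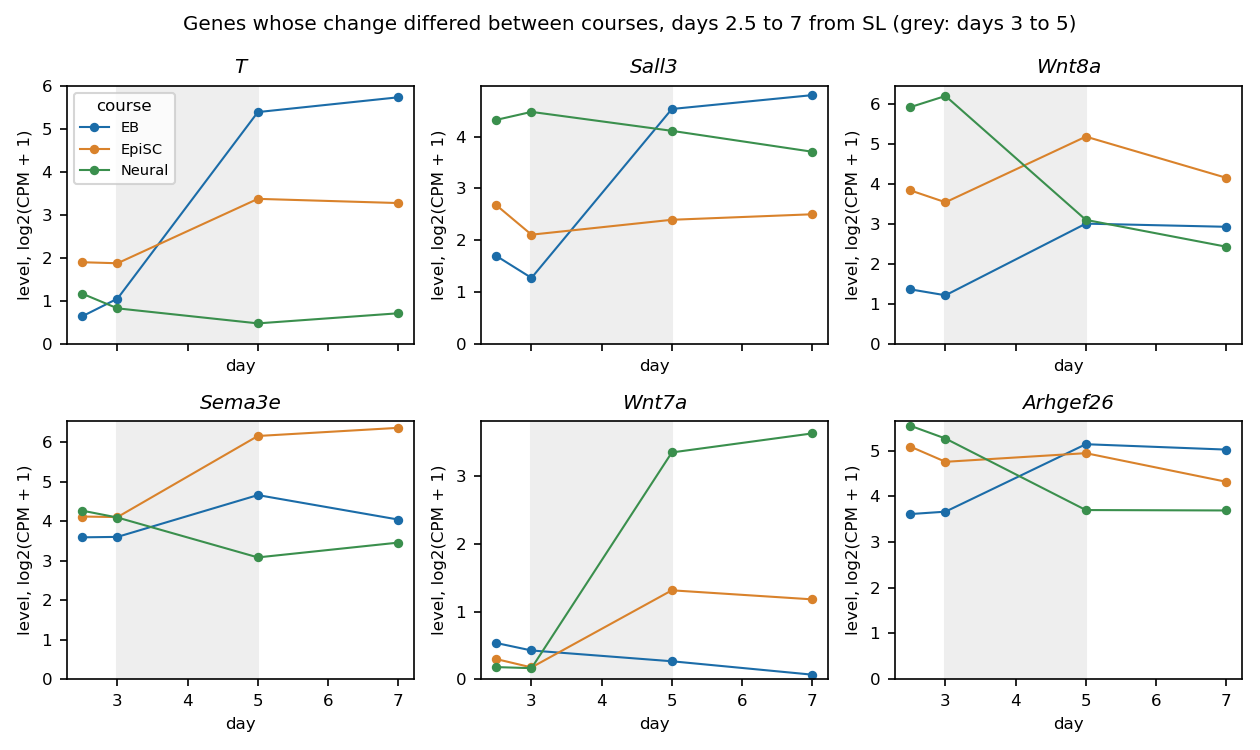
Levels, as log2(CPM + 1), of the 6 genes with the smallest p of the course by period test on days 2.5, 3, 5 and 7 from SL, with 1 point a library and 1 line a course (EB blue, EpiSC orange, Neural green). The grey band marks days 3 to 5. T and Sall3 rose in EB, Wnt7a in Neural and Sema3e in EpiSC and EB, while Wnt8a and Arhgef26 moved up in EB and down in Neural.

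The gene with the smallest p was T (brachyury), the T-box factor that defines the primitive streak. It was at 0.560 and 1.07 CPM in EB at days 2.5 and 3 and at 41.2 and 52.6 at days 5 and 7. In EpiSC it was at 2.73 and 2.67, then 9.39 and 8.71 CPM, and in Neural it did not exceed 1.24 CPM (adjusted p = 0.00553). T was thus higher late in EB and EpiSC but not in Neural, and its shared term did not pass (log2 fold change 2.60, adjusted p = 0.253). Wnt3, an upstream Wnt ligand of the streak, was also among the 41 and went from 0.634 to 6.37 CPM in EB (adjusted p = 0.0486).

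Other Wnt ligands went in opposite directions. Wnt8a was at 59.5 and 72.4 CPM in Neural at days 2.5 and 3 and at 7.57 and 4.38 at days 5 and 7. In EB it went the other way, from 1.57 and 1.32 CPM to 7.02 and 6.60, and in EpiSC from 13.3 and 10.6 to 35.3 and 16.8 (adjusted p = 0.00955). Wnt7a, a ligand of the developing nervous system, was below 0.5 CPM in all courses early, and reached 9.23 and 11.4 CPM in Neural, 1.49 and 1.27 in EpiSC and at most 0.201 in EB (adjusted p = 0.0139).

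Genes with a fall in Neural beside a rise or a level course elsewhere made up a further part of the 10 smallest p. Il17rd, an inhibitor of Fgf signalling, was at 139 and 129 CPM early and 46.6 and 45.7 late in Neural, against 78.6 and 86.5 early and 121 and 188 late in EB. Igfbp3, a binding protein of insulin-like growth factors, went from 50.1 CPM at day 3 to 153 at day 5 in EpiSC and from 23.6 to 11.8 in Neural. Npr1, Arhgef26 and Sema3e had the same pattern, higher in EB and EpiSC and lower in Neural at day 5. Ptrf, a component of caveolae, was higher at day 5 in EpiSC (6.17 and 20.7 CPM) and lower in EB and Neural (5.41 and 2.56, 5.52 and 3.28).

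A further 3 of the 41 are named after their values were seen. Epas1, a hypoxia-inducible factor chain, was at 15.9 and 22.2 CPM early and 141 and 281 late in Neural (adjusted p = 0.0402). In EB it was at 10.1 and 10.8 CPM early and 12.9 and 25.0 late, and in EpiSC it was lower late, at 16.2 and 15.6 CPM and then 9.33 and 3.80. Lrpap1, a chaperone of lipoprotein receptors, went from 171 CPM at day 3 to 426 at day 5 in Neural, and stayed between 60.9 and 90.1 in the 8 libraries of EB and EpiSC. Slc2a1, the glucose transporter Glut1, went down in Neural (1058 and 541 CPM at days 3 and 5) and up in EB (688 and 867) and EpiSC (321 and 430).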

How the data were processed

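Total RNA was depleted of ribosomal RNA and made into strand-specific libraries. As the authors describe, reads were trimmed with TrimGalore, aligned with TopHat2 to GRCm38/mm10 guided by Ensembl annotation, and counted per gene with strand-specific featureCounts. The deposited values are raw counts, 1 table a library. Tool versions and the treatment of reads that match several genes are not given in the sources used here. Rows with an Ensembl identifier but no gene symbol held at most 0.000978% of the counts in the 6 libraries and 0.0014% in all 45, and were kept as genes.

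Counts of the 6 libraries were fitted with edgeR 4.0.16 (R 4.3.3) by its quasi-likelihood test, with course as a block and day as the tested term, after filterByExpr and TMM scaling. Adjusted p-values are Benjamini-Hochberg values over all genes tested, with a threshold of 0.05, and a shared change also needed 1 sign in the 3 courses. The course pairs the days: deviations of the 2 libraries of a course from their day means correlated at 0.623 for EB, 0.529 for EpiSC and 0.672 for Neural. No copied library was seen among the 15 pairs. Levels are CPM with TMM factors over the 45 libraries, and changes within 1 course are log2((CPM + 1) ratio). Course differences were tested with an F-test of course by period on 12 libraries, and medium differences with medium by day on 8. DESeq2 1.42.0 served as an alternative. The scripts were tested on simulated data. Gene positions (97.8% of genes matched) and transcripts for the 50-base comparison came from GENCODE M21 on GRCm38, and promoters from RefSeq.

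The named genes were the 10 largest shared rises and 10 largest shared falls with a mean of 5 CPM or more, the 4 largest changes past the threshold in each list, the 8 largest rises and 5 largest falls of each single-course set, the 10 smallest p of the course test, the 5 smallest p of the medium test and 15 fixed genes, leaving out clone names and 4 genes that are not reported here. The genes and lists were chosen with earlier results of these data known.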

Additional observations from a re-analysis of the deposited data

Results flagged for a closer look

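The change between days 2.5 and 3 and days 5 and 7 differed between courses in 41 genes by the test of the difference itself (edgeR quasi-likelihood F-test, course by period, 12 libraries). The 10 smallest adjusted p-values were 0.00553 for T, 0.00955 for Wnt8a, 0.0104 for Sall3, 0.0106 for Arhgef26, 0.0139 for Sema3e and Wnt7a, 0.0181 for Npr1 and Igfbp3, and 0.0349 for Il17rd and Ptrf. Neighbouring days stood in for replicates in this test. With 3 courses, no group held enough samples for a test of single outlying libraries.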

How the results depend on the processing

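In place of 65 shared genes, DESeq2's Wald test gave 834 (458 up, 376 down), no filter on low counts 383 (191 up, 192 down) and all 21 libraries from SL 1208. Without the replicate block (the pairing by course) edgeR gave 0, with 1135 genes at an unadjusted p below 0.05. RLE factors gave 67. Leaving out 1 course gave 0 to 34, and 26 of the 65 were among the 34. Calls of list genes, 5 in all, became 92, 45 and 61 with DESeq2, no filter and 21 libraries, 0 without the replicate block, and 0 to 2 without 1 course. Of 21 named shared genes, all stayed past the threshold with DESeq2, RLE factors and no filter, 18 with 21 libraries, 8 without EB and 0 without EpiSC, Neural or the block. Those that lost their call kept their direction, except that Pou3f2 and Nr2f1 gave no value without Neural, where the filter on low counts removed them. Genes that had not passed changed sign: Fgf5 (log2 fold change 0.15) and Pax6 (0.11) without the block, Fgf5 with 21 libraries (0.013), Sox2 without EB (0.059), Pax6 without EpiSC (0.13), and Fgf5 (0.24) and Gata4 (-0.31) without Neural.

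The 41 course differences became 502 with no filter, 693 with DESeq2's likelihood ratio test and 383 with days 3 and 5 of both media, and 3 to 262 without 1 library: 4, 3 and 262 without EB at days 2.5, 3 and 5, 6, 6, 198 and 118 without EpiSC at days 2.5, 3, 5 and 7, and 3, 6, 108 and 5 without Neural at those days. The medium difference gave 0 genes with edgeR (48 unadjusted without the replicate block) and 10 with DESeq2, a test added after the data were seen. It was not run without 1 course, which leaves no residual degrees of freedom. The 3403 genes from day 2.5 to day 7 became 13, 0 and 1201 without EB, EpiSC or Neural. Single-course genes numbered 5 in EB and 8 in Neural with a pseudocount of 5 CPM, and 26, 51 and 55 in EB, EpiSC and Neural with a limit of 1 in the other courses. The cause of these shifts was not tested. Levels under 3 reads cannot be told from 0.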

Other observations

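Several genes of the basement membrane were higher at day 5 than at day 3 in the Neural course, by values of 1 library each without a test. Col4a1 and Col4a2, the chains of collagen IV, went from 1169 to 5297 and from 577 to 2657 CPM, the laminin chains Lama1 and Lamb1 from 1132 to 3482 and from 649 to 1833, and Sparc from 415 to 1774. Sox17 and Gata4, factors of endoderm, went from 15.8 to 52.9 and from 23.8 to 68.0 CPM in the same libraries. Higher levels of matrix genes were not confined to Neural. Of 21 extracellular matrix genes tested, 0 passed with edgeR in the 6 libraries. At an unadjusted p below 0.05, 12 were higher and 1 lower, against 11.1% and 9.33% of all genes. In the fit over 21 libraries 3 of 21 rose, against 3.71% of all genes. Their median log2((CPM + 1) ratio) was 0.213 in EB, 0.673 in EpiSC and 0.824 in Neural.

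In the EpiSC course Col3a1, a fibrillar collagen, went from 0.191 to 55.7 CPM and Krt18 from 89.1 to 477, also without a test in 1 course. These genes were chosen after their values were seen.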
